A study of Macaca mulatta with 6 samples.

Results

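The data described here are the 2 signals of the second digest pair at CCGG sites in rhesus macaque (Macaca mulatta) sperm, on chromosomes 1 to 20. Sites were chosen by position alone. They number 1254904 of the 1297392 rows in the authors' deposited table of sperm, and all of them carried signal in both columns. The series also holds haploid embryonic stem cells (ESC), which its title calls parthenogenetic, meaning that they arose from an egg with no contribution of a father. Each cell type was represented by 3 libraries, 1 for each of the digests labelled HpaII, BGT_MspI and MspI. The labels give no animal, age or treatment for either cell type. Nothing was replicated, so no value below has a replicate error and no test between conditions was possible. The values describe these libraries.

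The assay, HMST-Seq, reads cytosine modification from the way restriction enzymes cut CCGG sites. HpaII is blocked when the inner cytosine is methylated (5mC) or hydroxymethylated (5hmC), while MspI cuts both. A glucosyltransferase adds glucose to 5hmC and thereby blocks MspI there, so a glucosylated and a plain MspI digest differ where 5hmC is present. Mature sperm DNA is known for dense 5mC outside CpG islands and for little 5hmC.

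The table has no column names, so its structure was examined before any digest was named. It holds 4 columns of signal in 2 pairs. The second column of the first pair equalled the first column of the second pair in 1297392 of 1297392 rows, so 1 column serves in both pairs and the table holds 3 distinct columns for 3 libraries. The remaining column of the first pair had a Pearson r across sites of 0.342 with the first signal of the second pair and of 0.343 with the second. The first and second signals of the second pair had r = 0.963 with each other. These correlations run across sites of the same genome and share its mappability and copy number. No header or label says which library a column came from, so neither signal is named by its digest here. The sign of a difference between them is therefore a difference of signals, not a gain or loss of 5mC or 5hmC.

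The contrast of a site was e = (first signal - second signal) / (first signal + second signal), which is 0 for equal signals and 0.5 or -0.5 for a 3-fold difference. The signals are normalized values in units that the table does not explain. No value was whole or 0, and the lowest was 0.592, so the read depth behind a site is unknown and no counting interval can be given for a single site. Summed signal per site, the only stand-in for depth, had a median of 32.9 and quartiles of 18.2 and 59.9.

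The 2 signals were nearly equal in sperm. The first signal summed to 1.01 times the second over all autosomal sites, and the medians per site were 16.3 and 16.4. The median of e was 0.00093, with quartiles of -0.111 and 0.113. The first signal was higher at 629913 sites, or 50.2% (95% Wilson interval 50.1% to 50.3%, counting error only). That share fell to 49.1% with each column divided by its sum, so the side of the small excess rests on scaling. At 75.6% of sites e lay within 0.2 of 0. The 5th and 95th percentiles were -0.298 and 0.295, which are first-to-second ratios of 0.540 and 1.84. The distribution was thus almost symmetric about equal signals. How far its centre was set by the authors' normalization was not tested.

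Above a summed signal of 2 the distribution was mostly narrower at higher signal, as shown in the plot of contrast by summed signal. The SD of e over sites was 0.354 at a summed signal of 2 to 5, 0.160 at 20 to 50 and 0.139 at 50 to 100. It was still 0.138 at 100 to 200 and fell to 0.0805 over the 751 sites with a summed signal of 1000 or more. From the 50 to 100 class to the 100 to 200 class there was thus almost no narrowing. Medians moved little across the classes, from -0.0275 at 5 to 10 to 0.0153 at 500 to 1000. Below a summed signal of 2 the values fell in steps, with a 5th percentile of -0.329, a median of -0.0066 and a 75th percentile of 0.304. Such steps leave single low sites with few possible contrasts.

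**Figure D1:**
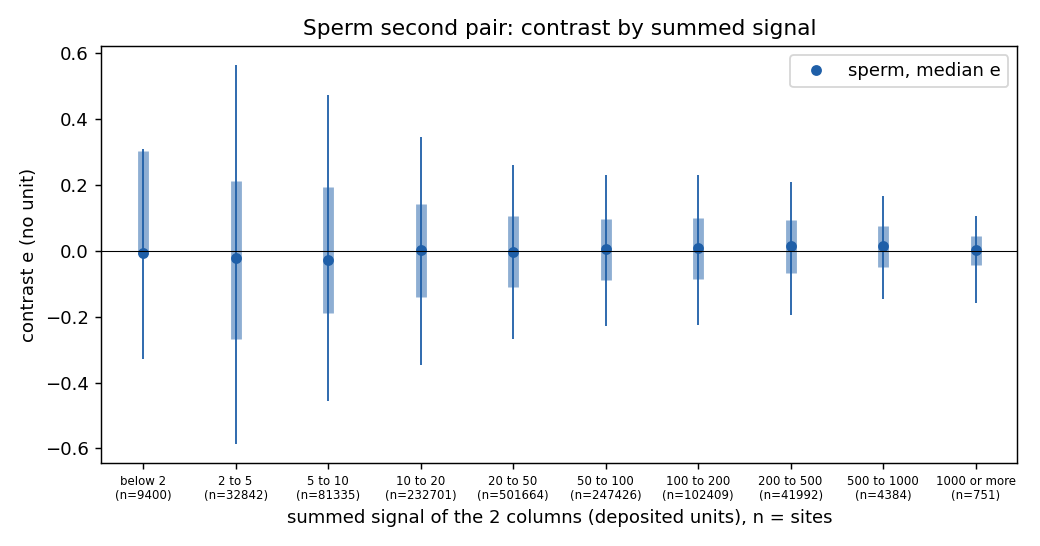
Contrast e (vertical axis, no unit) of sperm autosomal sites in classes of summed signal (horizontal axis, deposited units). Dots are medians, thick bars the quartiles and thin bars the 5th to 95th percentiles over sites. From the class of 2 to 5 rightward the thin bars shorten or stay alike in length, while the class below 2 is narrower than the next. The medians stay between -0.0275 and 0.0153.

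Large contrasts were rare. Among 898626 sites with a summed signal of at least 20, the first signal was at least 3-fold above the second at 496 sites (0.0552%), and the second was at least 3-fold above the first at 610 (0.0679%). Their numbers depended on the signal required. With a summed signal of at least 50 they were 53 and 86, and with at least 100 they were 13 and 26. The sites past 3-fold had median summed signals of 26.1 and 26.6, against 45.2 over all 898626 sites, so most lay near the lower limit.

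Sites past 3-fold with the second signal higher lay in denser sequence. Of these, 85.1% had another listed site within 1000 bp. The share was 67.9% of all sites with a summed signal of at least 20 and 72.4% of those with the first signal higher. The groups were not matched for summed signal, with medians of 26.6, 45.2 and 26.1 in this order. Their median distance to the nearest site was 331.5 bp, against 502 bp over all sites. The third column of signal, which belongs to the first pair alone, had a median of 30.8 at sites with the second signal higher and 22.8 at those with the first signal higher. Over all sites at this signal its median was 17.7. Nearly all sites past 3-fold were also listed in haploid ESC, 97.8% and 97.4%, as were 98.1% of all sites at this signal.

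Few sites past 3-fold neighboured each other, and such sites were rare (0.0552% and 0.0679% of sites with a summed signal of at least 20). In all, 3 pairs of adjacent listed sites were both past 3-fold, and 2 of those pairs agreed in direction. Whether 3 is more or fewer than this rarity alone would give was not tested. On chromosome 12, the sites at 105138296 and 105138744 had first signals of 6.07 and 6.65 and second signals of 19.8 and 20.9. On chromosome 20, the sites at 69087863 and 69088724 had first signals of 4.97 and 5.01 and second signals of 20.3 and 15.5. The discordant pair lay on chromosome 8, where the site at 11953445 had signals of 20.3 and 6.48 and the site at 11954028 had 6.06 and 19.7. No stretch of consecutive sites past 3-fold in 1 direction was longer than a pair. Genome positions are given as the table lists them. Its build is unknown here, so genes at these positions are not named.

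The sites with the most extreme contrast among the 12550 sites in the top 1% of summed signal (365 or more) were described one by one. Ranking chose them, so their sperm values are a description. The highest e lay on chromosome 6 at 141315083, with a first signal of 268 and a second of 113. The next lay on chromosome 4 at 10038335 (306 and 130). On chromosome 13 at 125705208 the signals were 316 and 137. Its nearest listed site, 421 bp away, had 74.8 and 35.9, so both sites leaned the same way. The site on chromosome 16 at 31235824 had 265 and 121, and that on chromosome 15 at 50171212 had 267 and 122. The nearest sites of these last 2 leaned the other way, with e of -0.274 at 2375 bp and -0.241 at 181 bp.

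At the opposite end, the site on chromosome 10 at 28269285 had a first signal of 167 and a second of 470. A listed site only 4 bp away, so that the recognition sequences abut, had 57.3 and 43.7 and thus leaned the other way. The site on chromosome 8 at 74950158 had 153 and 390. The site on chromosome 19 at 4051582 had 129 and 306. On chromosome 12 the sites at 60034406 and 105806379 had 118 and 274, and 132 and 306. Even at this end of the ranking the larger signal was under 3 times the smaller: the ratio of first to second was 0.355 on chromosome 10 and 2.38 on chromosome 6.

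The haploid ESC table gave a contrast nearer to 0 at each of these 10 sites. Ranking by sperm e alone favours that outcome, so it cannot show whether the cell types differ. On chromosome 6 its signals were 30.1 and 26.8, and on chromosome 4 they were 110 and 97.1. On chromosome 10 they were 89.3 and 148, with e of -0.248 on the same side as in sperm. On chromosome 16 they were 30.2 and 56.3, on the opposite side from sperm. The chromosome 19 site had a first signal of 0.99983 and a second of 0.997 in haploid ESC, close to the lowest values of that table, against 129 and 306 in sperm.

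**Figure D2:**
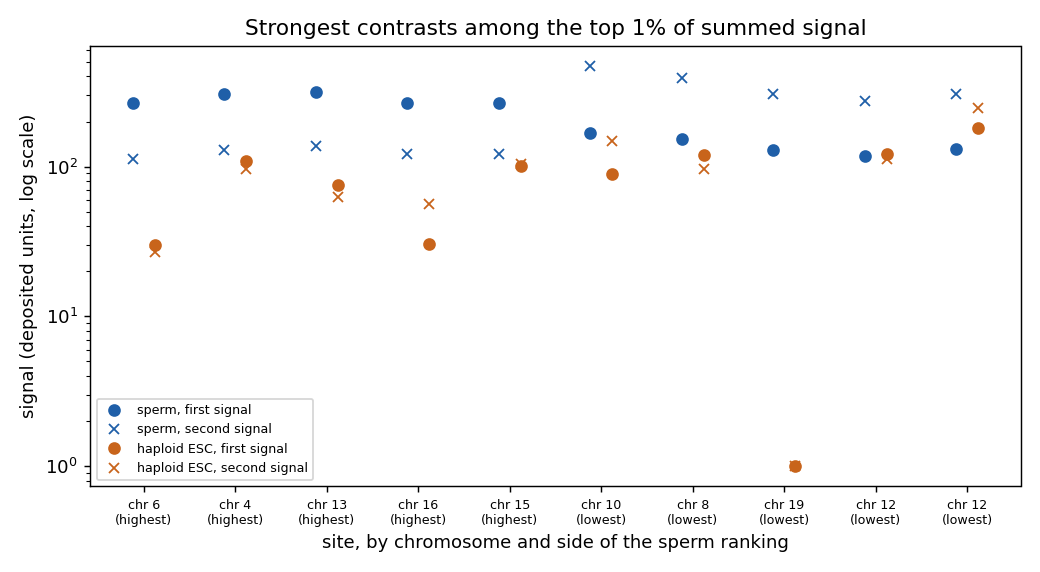
Signals (vertical axis, deposited units, log scale) at the 5 sites with the highest and the 5 with the lowest e among the top 1% of sperm summed signal. Circles are first and crosses second signals, blue for sperm and orange for haploid ESC. The sperm symbols stand apart by ranking, while most orange pairs nearly overlap.

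Neighbouring sites showed almost no likeness of contrast. For adjacent sites in sperm with a summed signal of at least 20 in each, Pearson r of e was 0.0068 below 20 bp (4700 pairs), 0.018 at 50 to 100 bp (24950 pairs) and 0.0057 at 500 to 1000 bp (91131 pairs). The same sign was found in 51.7%, 51.9% and 50.2% of these pairs. In haploid ESC the corresponding r at 50 to 100 bp was 0.094 and at 100 to 200 bp 0.100, against 0.0040 in sperm at 100 to 200 bp. All of these are weak, and without replicates sperm could not be tested against haploid ESC. Sites within 1 library share its digest and sequencing.

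Small shifts of e did follow the spacing of sites. Where the nearest listed site was under 20 bp away, the median e of 18100 sperm sites was -0.027, and where it was 5000 bp or more away, that of 30283 sites was 0.031. Between these, medians were -0.013 at 20 to 50 bp, -0.015 at 50 to 100 bp, -0.0051 at 100 to 200 bp, -0.0064 at 200 to 500 bp, -0.00055 at 500 to 1000 bp and 0.015 at 1000 to 5000 bp. Both signals were also higher at isolated sites: the median first signal was 33.8 and the second 31.8 at 5000 bp or more, against 15.97 and 16.6 below 20 bp. Between these classes the signals did not rise steadily. Median summed signal was 39.2 at 100 to 200 bp, 26.3 at 500 to 1000 bp and 38.7 at 1000 to 5000 bp. The column of the first pair alone was not higher at isolated sites, with medians of 14.3 at 5000 bp or more and 15.2 below 20 bp. The shift is small beside the spread of single sites, since the quartiles of e at 5000 bp or more were -0.063 and 0.123.

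The order held in each chromosome taken alone. The median e of sites at 5000 bp or more exceeded that of sites below 20 bp in 20 of 20 autosomes, by 0.038 on chromosome 13 to 0.068 on chromosome 14. It also held within each class of summed signal from 10 upward. At 20 to 50 the medians of these 2 spacing classes were 0.023 and -0.019, at 100 to 200 they were 0.040 and -0.026, and at 200 to 500 they were 0.042 and -0.039. Summed signal differed between these 2 spacing classes, but their order was present among sites of like signal. Base composition and fragment length, which also vary with spacing, were not measured, and their part in the result was not tested.

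Haploid ESC gave an order of the same kind over a narrower range. Its median e was -0.018 below 20 bp, -0.019 at 50 to 200 bp in both classes there, and 0.0076 at 5000 bp or more. The difference between the widest and the closest class was 0.058 in sperm. Both orders are shown in the plot of contrast by spacing. Whether the cell types differ in this could not be tested without replicates.

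**Figure D3:**
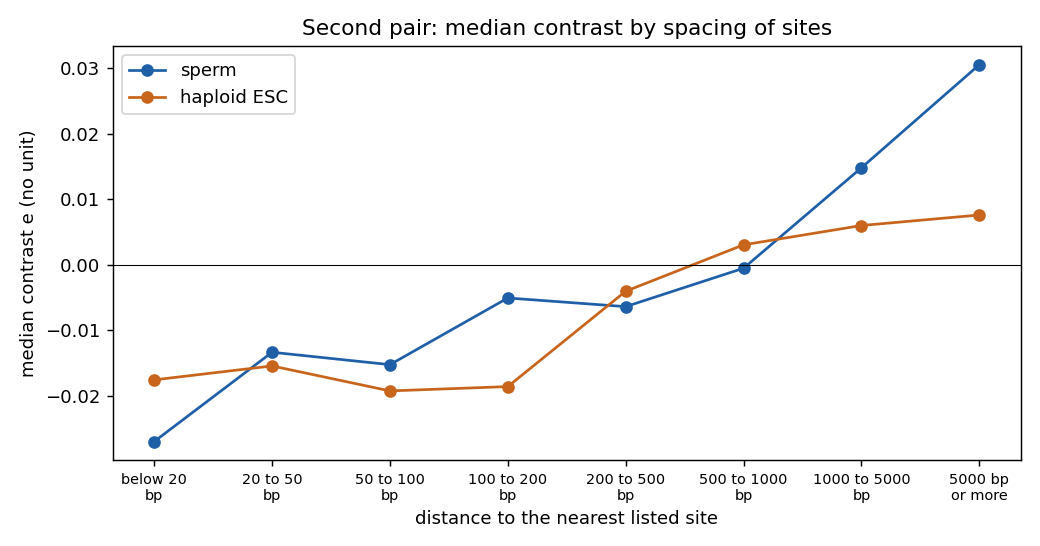
Median contrast e (vertical axis, no unit) by distance to the nearest listed site (horizontal axis) in sperm (blue) and haploid ESC (orange). Lines join medians over sites, and no error is drawn since nothing was replicated. From the closest to the widest class sperm goes from -0.027 to 0.031 and haploid ESC from -0.018 to 0.0076. Neither line rises at each step, and haploid ESC is lowest at 50 to 100 bp (-0.019).

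Chromosomes were ordered by how densely they carry sites. Chromosome 19, with 755 listed sites per Mb, had the lowest median e in sperm, -0.016. Chromosome 16 had -0.0092 at 716 sites per Mb, chromosome 10 -0.0090 at 703 and chromosome 20 -0.0072 at 584. The highest median, 0.013, belonged to chromosome 5, which had the fewest sites per Mb (326), followed by chromosome 2 with 0.0099 at 371. The first signal was higher at 46.4% of sites on chromosome 19 (95% Wilson interval 46.0% to 46.8%) and at 53.2% on chromosome 5 (52.8% to 53.6%). These intervals hold counting error only and take sites of the same libraries as independent. Over the 20 autosomes Spearman's rho of median e with sites per Mb was -0.94. Median summed signal ran with density too (rho = -0.93), from 25.9 on chromosome 19 to 37.2 on chromosome 5. Within signal classes the difference of chromosome 5 over chromosome 19 was 0.024 at 20 to 50 and 0.044 at 100 to 200.

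Haploid ESC ordered the chromosomes nearly the same way, with rho = 0.96 between the tables. Its lowest median was also that of chromosome 19 (-0.019), and its highest were those of chromosomes 2 (0.0053) and 5 (0.0043). Which table had the higher median rests on scaling: sperm was higher on 20 of 20 autosomes with the values as deposited, on 6 with the sperm columns divided by their sums and on 1 with the columns of both tables so divided. So does the number of autosomes above 0: 11 were above 0 in sperm with the values as deposited, and 8 after each column was divided by its sum, which moved the median log2 ratio by -0.013. The order of chromosomes does not depend on where 0 lies.

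**Figure D4:**
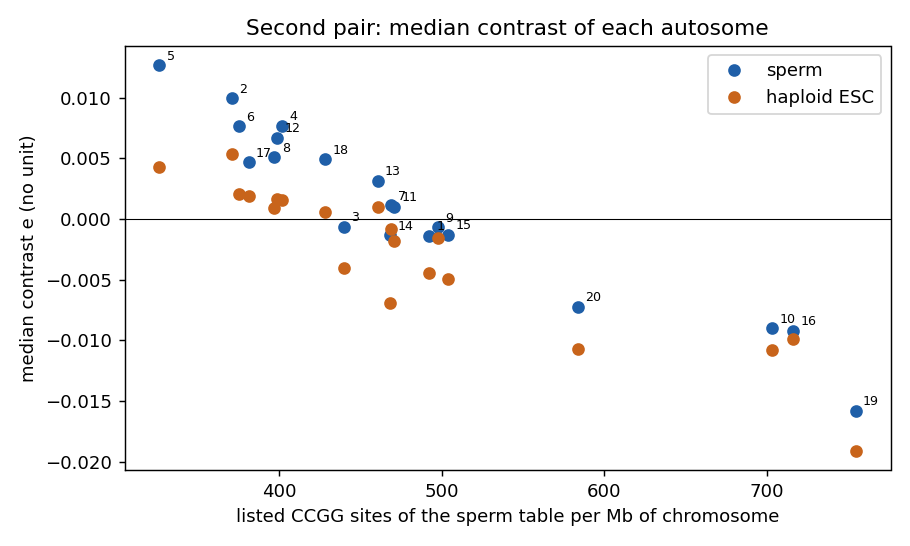
Median contrast e of each autosome (vertical axis, no unit) against listed sites per Mb (horizontal axis) in sperm (blue, numbered by chromosome) and haploid ESC (orange). Points fall from chromosome 5 on the left (0.013 in sperm) to chromosome 19 on the right (-0.016) in values as deposited. The offset between the blue and orange points depends on scaling. Sperm lies higher on 6 of 20 autosomes after its columns alone are divided by their sums. With the columns of both tables so divided, sperm lies higher on 1.

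The same gradient appeared within chromosomes. In 2686 windows of 1 Mb with at least 20 sites, e of the summed signals had an SD of 0.018 and a 5th to 95th percentile range of -0.023 to 0.037. Spearman's rho between the number of sites in a window and its e was -0.68, and it was negative in each of the 20 autosomes, from -0.33 on chromosomes 5 and 12 to -0.76 on chromosome 10. It was -0.53 from sites with a summed signal of 20 to 50 alone, and -0.34 from sites 1000 bp or more from the next alone. Windows were put into 5 classes of like size by their number of sites. In the class with the fewest sites (29 to 250) the median e was 0.023 and 94.8% of windows were above 0. In the class with the most sites (663 to 1929) the median was -0.011 and 16.8% were above 0. In haploid ESC, rho between the number of its sites and its e over the same windows was -0.62. Windows share their libraries and neighbouring windows share sequence context, so these are descriptions.

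Spacing and regional density each moved with e when the other was held. Among sites 50 to 100 bp from the next, the median e was 0.016 in the class of windows with the fewest sites and -0.030 in that with the most. Among sites 1000 to 5000 bp from the next, it was 0.020 and 0.0053. Sites at 5000 bp or more had 0.031 in the first and 0.032 in the last of these classes, so the regional difference was not seen there, though only 951 such sites lay in the windows with the most sites. Chromosome ends had lower contrasts than the interior, with neither spacing nor regional density held. Within 1 Mb of the first or last listed site the median e was -0.026 over 40582 sites. It was -0.027 at 1 to 2 Mb and 0.0061 beyond 10 Mb. Whether the ends differ apart from their density of sites was not tested.

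Single sites and large windows differed in how far the 2 cell types resembled each other. At 825613 shared sites with a summed signal of at least 20 in each table, Pearson r between sperm and haploid ESC e was 0.0077, and 50.9% of sites had the same sign. This r was 0.057 at a summed signal of at least 50, 0.078 at 100 and -0.015 with all sites. The sperm contrasts were narrower there, with an SD of 0.149 against 0.165. The first signal was at least 3-fold higher at 397 sites in sperm (0.0481%) and 1163 in haploid ESC (0.141%), of which 4 were the same (1.01% and 0.344% of these lists). The second was at least 3-fold higher at 520 (0.0630%) and 2307 (0.279%), of which 5 were the same (0.962% and 0.217%). Of the 397 sperm sites, 14 were past 3-fold in the opposite direction in haploid ESC, as was 1 of the 520. Over the 2686 windows of 1 Mb, in contrast, r was 0.62 and 77.2% of windows had the same sign. Among the windows with the most sites r was 0.63, and among those with the fewest it was 0.055. The share of windows with the same sign did not follow r, at 80.8% in the class with the most sites, 81.4% in that with the fewest and 58.8% in the fourth. In the class with the fewest sites, 94.8% of windows were above 0 in sperm and 84.0% in haploid ESC. In that with the most, 16.8% and 9.12% were. Such lopsided shares give many equal signs even between unrelated windows, and where 0 lies rests on scaling. Comparing the tables assumes that the second pair joins the same digests in both, which no header shows.

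**Figure D5:**
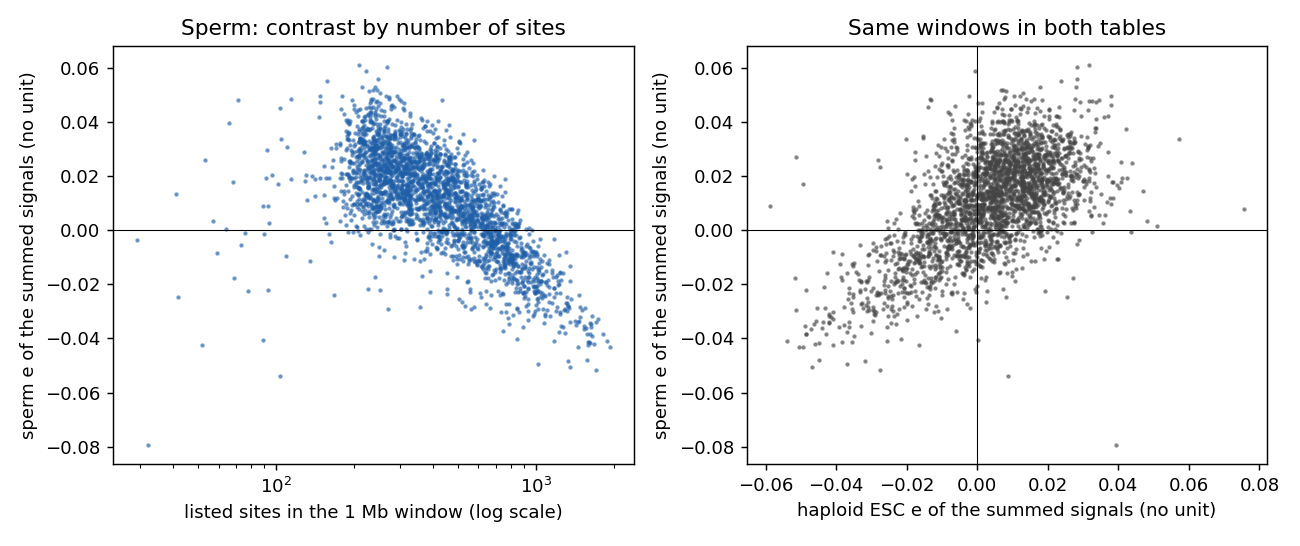
Each dot is a window of 1 Mb with at least 20 sperm sites. Left: sperm e of the summed signals (vertical axis, no unit) against the number of listed sites (horizontal axis, log scale). Right: the same sperm values against those of haploid ESC (horizontal axis, no unit). On the left e falls with the number of sites (rho = -0.68), and on the right windows low in both tables form the lower left arm (r = 0.62 over all windows).

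Windows of 100 kb gave the extremes of the ranking, and most of the lowest rested on a single site. There were 23469 windows with at least 20 sites, with e of the summed signals from -0.146 to 0.160 and a median of 0.0098. The lowest lay on chromosome 6 from 137300001 to 137400000, where 48 sites summed to 1484 and 1992. The site at 137379212 alone held 730 and 1263, or 57.3% of the signal, and without it e was 0.017. The next lay on chromosome 7 from 20600001 to 20700000, on chromosome 1 from 218700001 to 218800000 and on chromosome 13 from 83800001 to 83900000. In these, 1 site held 66.7%, 70.0% and 67.3% of the signal, and e went from -0.134, -0.128 and -0.125 to 0.0033, 0.045 and 0.0029 without it. The window on chromosome 4 from 166900001 to 167000000, with 129 sites, kept its sign, at -0.120 with and -0.048 without its strongest site.

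The highest windows kept their sign without their strongest site. On chromosome 7 from 76600001 to 76700000, 22 sites summed to 1004 and 728, with e of 0.160, and of 0.110 without the strongest site. On chromosome 6 from 160400001 to 160500000, 25 of 30 sites had the first signal higher, and e was 0.140 with and 0.129 without the strongest site. The other windows lay on chromosome 2 from 31300001 to 31400000 (0.147 and 0.067 without the strongest site), chromosome 4 from 94300001 to 94400000 (0.138 and 0.077) and chromosome 5 from 123700001 to 123800000 (0.135 and 0.095). On chromosome 4 only 9 of the 22 sites had the first signal higher. Haploid ESC gave e between -0.034 and 0.050 in these 5 windows. The windows were ranked by sperm e alone, which favours values nearer to 0 in haploid ESC. These values therefore cannot show whether the cell types differ.

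The column of the first pair alone bore little relation to e. In 10 classes of like size by that column, from a median of 2.96 to 145, the median e of the second pair at a summed signal of at least 20 ran from -0.0076 to 0.0085. It was -0.0035 in the lowest class, 0.0085 in the seventh and -0.0076 in the ninth, so it did not follow 1 direction. Shares past 3-fold were 0.116% with the first and 0.125% with the second signal higher in the highest class, and 0.0708% and 0.142% in the ninth. They did not rise steadily with that column: the lowest class had 0.0633% and 0.0667%, and the second, with the smallest shares of both kinds, 0.0258% and 0.0109%.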

How the data were processed

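HMST-Seq libraries were sequenced as single-end reads of 50 bp, per the labels' protocols. The authors deposited 1 table per cell type with 10 columns and no header. Its value columns are signal normalized by the authors in a way not stated. The aligner and counter were not given in the sources used here; as to the build, the submitters' processing notes name hg19, which does not match the chromosome names. The table was tied to sperm because the labels of its 3 libraries name it; columns were not tied to digests. Columns other than those of position and signal were not used, and 3 value columns (the repeats and the haploid ESC first-pair column) served in no measurement. The members and classes were chosen with earlier results of these data known. Rows on chromosomes 1 to 20 were kept, e was computed per site, and windows used summed signals. Named sites and windows were the 5 highest and 5 lowest by e (sites within the top 1% of summed signal, windows of 100 kb with at least 20 sites). Windows of 1 Mb, distances to chromosome ends and neighbouring pairs past 3-fold were added after the data were seen. No test was run, since each digest had 1 library. Medians by class and window sums were tested on simulated data with planted contrasts. Python 3.11.15, pandas 2.3.3, numpy 2.4.6 and scipy 1.17.1 were used. The read depth per library is unknown.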

Additional observations from a re-analysis of the deposited data

Results flagged for a closer look

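Medians of e on opposite sides of 0 in the 2 cell types are listed here, and none of these differences was tested. Over all autosomal sites the median was 0.00093 in sperm and -0.0024 in haploid ESC. It was 0.0011 and -0.00083 on chromosome 7, and 0.0010 and -0.0018 on chromosome 11. At sites 500 to 1000 bp from the next it was -0.00055 and 0.0030. With the sperm columns divided by their sums the sperm medians were -0.0034 on chromosome 7 and -0.0035 on chromosome 11, so those signs rest on the scaling. The haploid ESC columns, whose first signal summed to 0.994 times the second, were not divided for these values. Whether the 2 cell types lie on opposite sides of 0 there after the same division was not tested. With the columns of both tables divided, sperm had the higher median on only 1 autosome, against all autosomes as deposited.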

How the results depend on the processing

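The centre of e depends on scaling and on the signal required. The median of 0.00093 became 0.0025 at a summed signal of at least 10 and 0.0025 at 20, 0.0075 at 50, and -0.0036 with each column divided by its sum. The mean of 0.00097 became 0.0053 at a summed signal of at least 50, 0.0045 with sites weighted by summed signal and -0.0034 with each column divided by its sum. Counts past 3-fold, 496 with the first and 610 with the second signal higher, became 2645 and 2541 at a summed signal of at least 10, 53 and 86 at 50, and 12084 and 13265 at 2-fold. Division by the sums gave 474 and 655. The difference of isolated over close sites was 0.058, and 0.048 at a summed signal of 50 to 100; that of chromosome 5 over chromosome 19 was 0.028, and 0.034 there. The rho of site count and e in 100 kb windows was -0.39, against -0.33 at 50 kb, -0.47 at 200 kb and -0.68 at 1 Mb. The r between cell types at shared sites was 0.0077, against 0.057 at a summed signal of at least 50, 0.078 at 100 and -0.015 with all sites. The 50 to 100 class, 1 Mb and the last 2 limits were chosen after seeing the data. The cause was not tested in any of these. No site had a signal of 0, so leaving such sites out gave no value. No paired analysis was possible because the result comes from no test. Unknown read depth limits every single-site value.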
